A study of Mus musculus with 8 samples.

Results

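The SOCS family was followed in bone marrow-derived dendritic cells (BMDCs) exposed to a microtubule-destabilizing agent. Its members were the 8 genes listed by symbol in the deposited table, *Socs1* to *Socs7* and *Cish*, out of 23356 genes. All 8 had a Cuffdiff status of OK and reached 1 FPKM in at least 1 group, as did 11397 genes in all, so no member was lost to the filter. BMDCs are dendritic cells grown from mouse marrow in culture, here with GM-CSF and IL-4. The study compared cells of WT mice with cells of mice lacking *Arhgef2* (GEF-H1-/-), the gene of the microtubule-bound exchange factor GEF-H1, all on the C57BL/6 background by the labels (C57BL/6N in the methods). Cells of each genotype were left untreated (control) or received ansamitocin-P3, a maytansine-type drug that binds tubulin, at 100 nM for 5 h. Each of the 4 groups had 2 libraries. GEF-H1 is missing from the whole animal in this model, also while the marrow cells develop. The labels give no age, and the methods describe sex-matched adult mice of both sexes.

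The table holds 1 FPKM value (fragments counted on a gene, scaled for transcript length and for library size) per gene and group, in which both libraries are merged. No spread between libraries can be taken from it, so no difference below has a p-value, an SD or an n. The error given is the interval that Cuffdiff computed for each FPKM. Its level is not stated and was taken as 95%, the default of the program. The depth of the libraries is unknown. Changes are log2 ratios of FPKM + 1, each with an interval propagated from the Cuffdiff intervals of the values that enter it. "Rose" and "fell" are kept for genes past 2-fold on that scale or with Cuffdiff intervals that lay apart, which describes these pooled values and is no test of the conditions.

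SOCS proteins are intracellular brakes on cytokine signaling. Cytokine receptors activate Janus kinases (JAKs), which phosphorylate STAT transcription factors, and STATs switch on several SOCS genes, so that the pathway makes its own inhibitor. Each SOCS protein has an SH2 domain that binds phosphotyrosine and a SOCS box that recruits elongins and Cullin 5 for ubiquitination. In dendritic cells, SOCS1 and SOCS3 are known as limits on interferon and IL-6 type signaling, and CIS, the product of *Cish*, is a classic product of STAT5 downstream of GM-CSF.

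Promoter windows from RefSeq (GRCm38.p6, 250 bases before to 50 bases after the annotated start, gene strand) were found for 4 of the 8 members, *Cish*, *Socs1*, *Socs3* and *Socs4*. They are shown for the members whose mRNA is under known STAT or interferon control, with matches to cytokine-responsive motifs in capitals.
Cish: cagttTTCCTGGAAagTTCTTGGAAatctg
Socs3: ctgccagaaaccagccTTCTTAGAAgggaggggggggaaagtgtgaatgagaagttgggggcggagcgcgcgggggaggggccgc
Socs1: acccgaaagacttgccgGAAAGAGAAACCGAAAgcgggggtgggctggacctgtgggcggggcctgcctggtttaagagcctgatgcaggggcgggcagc
The *Cish* stretch is chr9:107296654-107296683 on the plus strand, the *Socs3* stretch chr11:117969452-117969536 on the minus strand and the *Socs1* stretch chr16:10785537-10785636 on the minus strand. Capitals mark TTCNNNGAA, the STAT-type palindrome, in *Cish* and *Socs3*, and GAAA followed after any 2 bases by a second GAAA, an interferon-response type repeat, in *Socs1*. *Cish* held 2 copies of the palindrome, at bases 1 to 9 and 12 to 20 counted from the RefSeq start. A window with at least 2 copies was found in 0.457% of all 32851 windows, and 1 or more in 8.30%. GENCODE M21 places both copies in the 5′ UTR of the *Cish* transcript that starts farthest upstream, and in the deposited table the gene begins downstream of them, at 107296689. *Socs3* held 1 copy, at bases -154 to -146, inside an intron of a noncoding GENCODE transcript of the gene that starts farther upstream. *Socs1* held 2 overlapping copies of the repeat, at bases -83 to -74 and -77 to -68, ahead of every GENCODE start of the gene. The repeat was present in 3.44% of all windows and present 2 or more times in 0.225%. Both strands were searched, and the 4-base spacer form TTCNNNNGAA (6.95% of windows), the AP-1 motif TGANTCA (7.81%) and the NF-κB consensus (8.46%) had no match in any of the 4 windows, *Socs4* included. A match of letters is a description and does not show that a factor binds there.

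*Arhgef2* itself was at 42.3 and 45.9 FPKM in control and treated WT DCs and at 4.59 and 4.16 FPKM in control and treated GEF-H1-/- DCs, which follows the labels. All 7 dendritic cell markers listed reached 1 FPKM, with *Cd74* between 3073 and 4935 FPKM and *Zbtb46* between 9.09 and 22.1 FPKM, while *Flt3* was low, between 1.07 and 2.63 FPKM. Markers of other marrow cells were present and their levels differed between groups. Of 5 neutrophil markers listed, *Ly6g* had no entry among the deposited genes. The summed FPKM of the other 4 was 30126 and 35546 in WT against 20969 and 21427 in GEF-H1-/- DCs (control and treated). *S100a8* carried this sum, with 19401 FPKM in WT and 10856 FPKM in GEF-H1-/- controls, whereas *S100a9* was at 10678 and 10004 FPKM, and *Elane* (20.7 and 45.9 FPKM) and *Mpo* (26.4 and 63.1 FPKM) went the other way. The sum of 4 mast cell and basophil markers, 3 of them at 1 FPKM or more, was 101 and 105 in WT against 165 and 158 in GEF-H1-/- DCs. The sum of 5 macrophage markers was 216 and 165 in WT and 259 and 234 in GEF-H1-/- DCs, and *Mertk* was at 5.46 and 0.778 FPKM in control and treated WT cells. *Mcpt4*, a mast cell protease, was listed at 0 in both treated groups. The sum of 4 T cell markers was 15.2 and 16.9 in WT against 10.5 and 10.2 in GEF-H1-/- DCs. For 3 B cell markers it was 6.43 and 4.41 against 4.13 and 3.06. Of 2 NK cell markers, 0 reached 1 FPKM. In this bulk RNA, fewer cells of a type and less RNA per cell cannot be told apart, and the part of these cells in the values below was not tested.

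*Cish*, *Socs1* and *Socs2* dominated the family in every group. In control WT DCs *Cish* stood at 191 FPKM (Cuffdiff interval 151 to 231), *Socs1* at 179 (156 to 254) and *Socs2* at 143 (112 to 176). These intervals overlapped between neighbours in the order. *Socs2*, the lowest of the 3, was above 95.3% of the genes tested. *Socs6* followed at 26.7 FPKM, below *Socs2* and above *Socs4* with intervals apart on both sides. *Socs4* at 10.8 FPKM and *Socs3* at 10.1 FPKM could not be ordered, and neither could *Socs5* at 5.81 FPKM and *Socs7* at 4.99 FPKM. *Cish*, *Socs1* and *Socs2* together made up 89.8% of the summed FPKM of the family in control WT DCs, and between 87.9% and 89.2% in the other groups. With the drug, *Cish* stood apart at the top in both genotypes. *Socs3* moved from rank 6 to rank 4 in WT DCs, where its interval then overlapped that of *Socs6*, whereas in GEF-H1-/- DCs it held rank 5 before and after treatment, below *Socs6* with intervals apart.

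**Figure D1:**
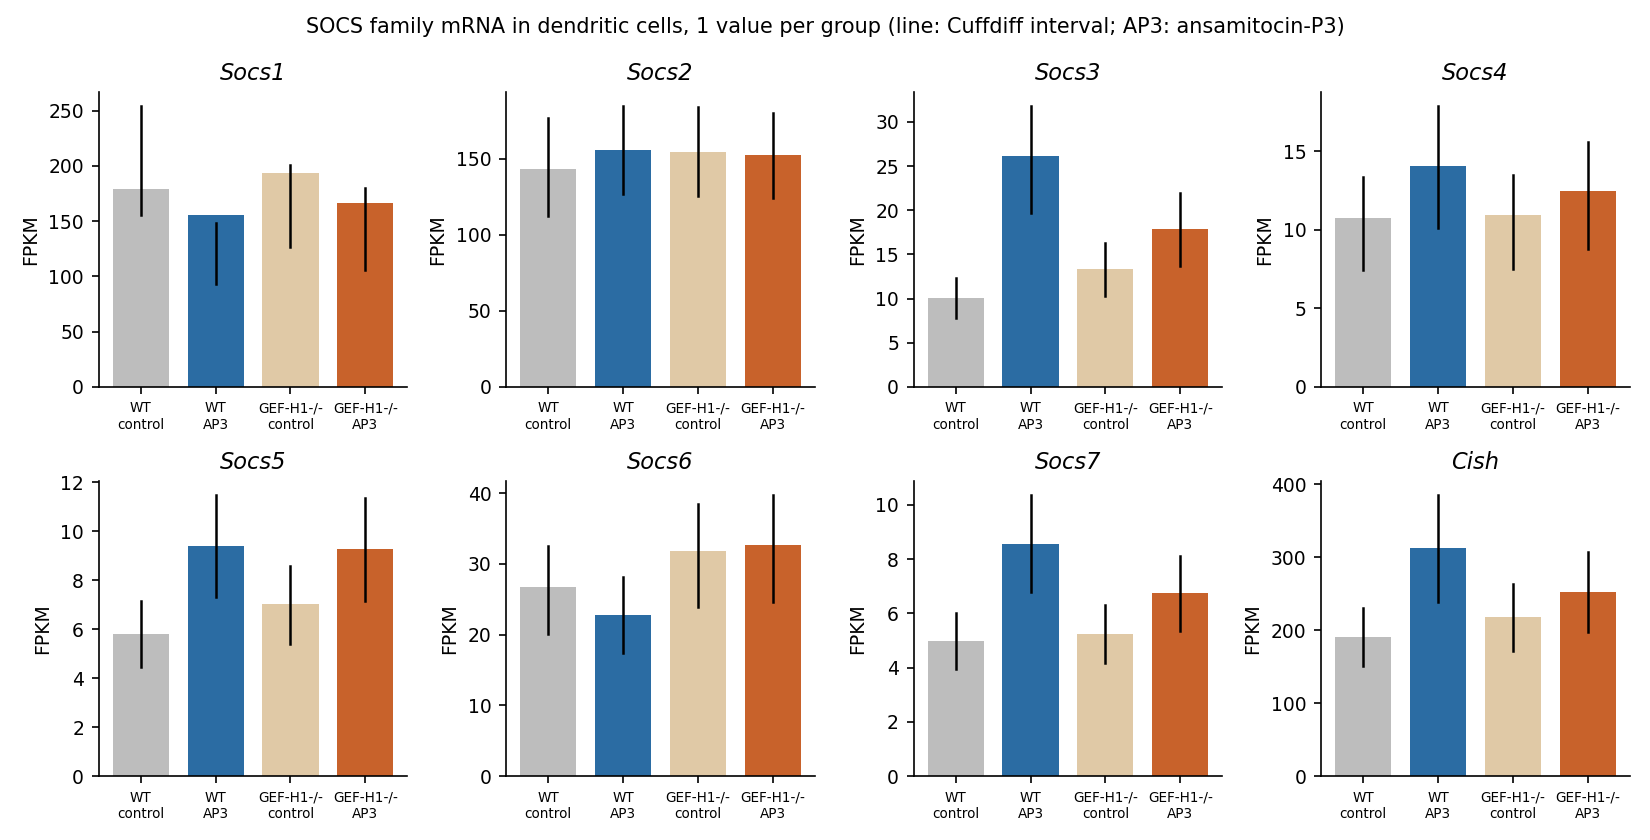
Level of each SOCS family gene (vertical axis, FPKM, starting at 0 and scaled per gene) in control and ansamitocin-P3-treated (AP3) WT and GEF-H1-/- DCs. Bars are the 1 pooled value per group and lines the Cuffdiff interval. *Socs3* reached 26.1 FPKM in treated WT DCs against 10.1 to 17.8 FPKM elsewhere, and for *Socs1* the treated WT bar ends above its own interval.

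By fold, *Socs3* rose most among the members with ansamitocin-P3, while in FPKM *Cish* gained more. The gene (chromosome 11, 117966087 to 117969366, minus strand, coordinates of the table in GRCm38) had 10.1 FPKM (7.84 to 12.3) in WT controls, 26.1 (19.6 to 31.8) in drug-treated WT cells, 13.4 (10.3 to 16.3) in GEF-H1-/- controls and 17.8 (13.6 to 22.0) in drug-treated GEF-H1-/- cells. Treated WT DCs were thus the high group, and their interval lay above those of both control groups but overlapped that of treated GEF-H1-/- DCs. SOCS3 binds gp130, the shared receptor chain of the IL-6 family, and blocks JAKs there. The change in WT DCs was 1.29 on the log2 scale (propagated interval 0.85 to 1.72), or 2.58-fold without the added 1 FPKM, rank 243 from the top of 11397 genes. *Socs3* was the only 1 of 8 members past 2-fold in WT DCs, where 4.94% of all genes tested were.

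*Cish* (chromosome 9, 107296689 to 107301961, plus strand) had 191 FPKM (151 to 231) in WT controls, 312 (239 to 385) in drug-treated WT cells, 218 (171 to 264) in GEF-H1-/- controls and 253 (197 to 307) in drug-treated GEF-H1-/- cells. Only the WT pair of intervals lay apart, by a narrow margin. CIS occupies STAT5 docking sites on receptors such as those for IL-2 and erythropoietin. The change in WT DCs was 0.71 (0.26 to 1.16), or 1.64-fold. GENCODE has 2 noncoding genes on the other strand over parts of the *Cish* locus, and whether the table was made with strand is not given in the sources used here.

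*Socs7* and *Socs5*, low in every group, also rose in WT DCs. *Socs7* (chromosome 11, 97362551 to 97398542, plus strand), which binds insulin receptor substrates, was at 4.99 FPKM (3.96 to 6.01) and 8.57 (6.78 to 10.4) in control and treated WT DCs, a log2 change of 0.68 (0.31 to 1.04). In GEF-H1-/- DCs it was at 5.24 (4.16 to 6.30) and 6.74 (5.34 to 8.11) FPKM. *Socs5* (chromosome 17, 87107679 to 87137588, plus strand), an inhibitor of IL-4 and EGF receptor signaling, was at 5.81 FPKM (4.45 to 7.16) and 9.39 (7.29 to 11.5) in WT and at 7.04 (5.39 to 8.58) and 9.29 (7.15 to 11.4) in GEF-H1-/- DCs. Its WT change was 0.61 (0.20 to 1.02), and both treated groups reached nearly the same level. *Socs4* (chromosome 14, 47277143 to 47291591, plus strand), a relative of *Socs5* linked to EGF receptor turnover, went the same way within its error. Its control and treated levels were 10.8 (7.45 to 13.4) and 14.0 (10.1 to 17.9) FPKM with GEF-H1, and 10.9 (7.51 to 13.5) and 12.5 (8.76 to 15.6) FPKM without it.

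The remaining 3 members did not rise. *Socs1* (chromosome 16, 10783809 to 10785536, minus strand), which blocks JAKs downstream of interferons and many other cytokines, had 179 FPKM (156 to 254) in WT controls, 156 (93.4 to 149) in drug-treated WT cells, 194 (126 to 200.5) in GEF-H1-/- controls and 166 (106 to 179.6) in drug-treated GEF-H1-/- cells. It was lower with the drug in both genotypes, with log2 changes of -0.20 (-0.67 to 0.27) and -0.22 (-0.64 to 0.20). The WT intervals lay apart, but the FPKM of treated WT DCs was above its own upper bound, so this separation rests on an interval that does not hold its value. *Socs2* (chromosome 10, 95411490 to 95416857, minus strand), the inhibitor of growth hormone signaling and another STAT5 target, was the flattest member, at 143 (112 to 176), 156 (127 to 185), 155 (125 to 184) and 152 (124 to 180.3) FPKM in control WT, treated WT, control GEF-H1-/- and treated GEF-H1-/- DCs. *Socs6*, which acts on KIT and insulin receptor signaling, was at 26.7 (20.1 to 32.5) and 22.8 (17.5 to 28.1) FPKM in WT and at 31.7 (23.8 to 38.5) and 32.6 (24.6 to 39.7) FPKM in GEF-H1-/- DCs. All 4 groups overlapped for *Socs2* and for *Socs6*.

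By counts, 6 of the 8 members were higher and 2 lower in treated than in control WT cells. The median log2 change was 0.48, against 0.00 over all 11397 genes, of which 50.1% were higher. Cuffdiff intervals lay apart for 5 of the 8 members (*Socs3*, *Cish*, *Socs5*, *Socs7* and *Socs1*), and for 16.8% of all genes. The propagated interval was above 0 for the first 4 of these and included 0 for *Socs1*.

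In GEF-H1-/- DCs the changes with ansamitocin-P3 were smaller. Again 6 members were higher and 2 lower, *Socs2* in place of *Socs6* being on the lower side, with a median of 0.20 against -0.01 over all genes. No member passed 2-fold (0 of 8, against 1.08% of all genes), and none had intervals apart (0 of 8, against 3.70%). The largest change was again that of *Socs3*, at 0.39 (-0.05 to 0.83), followed by *Socs5* at 0.36 (-0.05 to 0.77), *Socs7* at 0.31 (-0.05 to 0.67), *Cish* at 0.22 (-0.22 to 0.65) and *Socs4* at 0.18 (-0.34 to 0.69). Ranked among all genes, *Socs3* was still at the 93.8th percentile in GEF-H1-/- DCs and at the 97.9th in WT DCs, while the changes of all genes were narrower without GEF-H1. *Socs1* was at the 30.2nd percentile in WT and at the 13.0th in GEF-H1-/- DCs with almost equal log2 changes. Its WT change uses the treated FPKM that lay above its own interval.

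**Figure D2:**
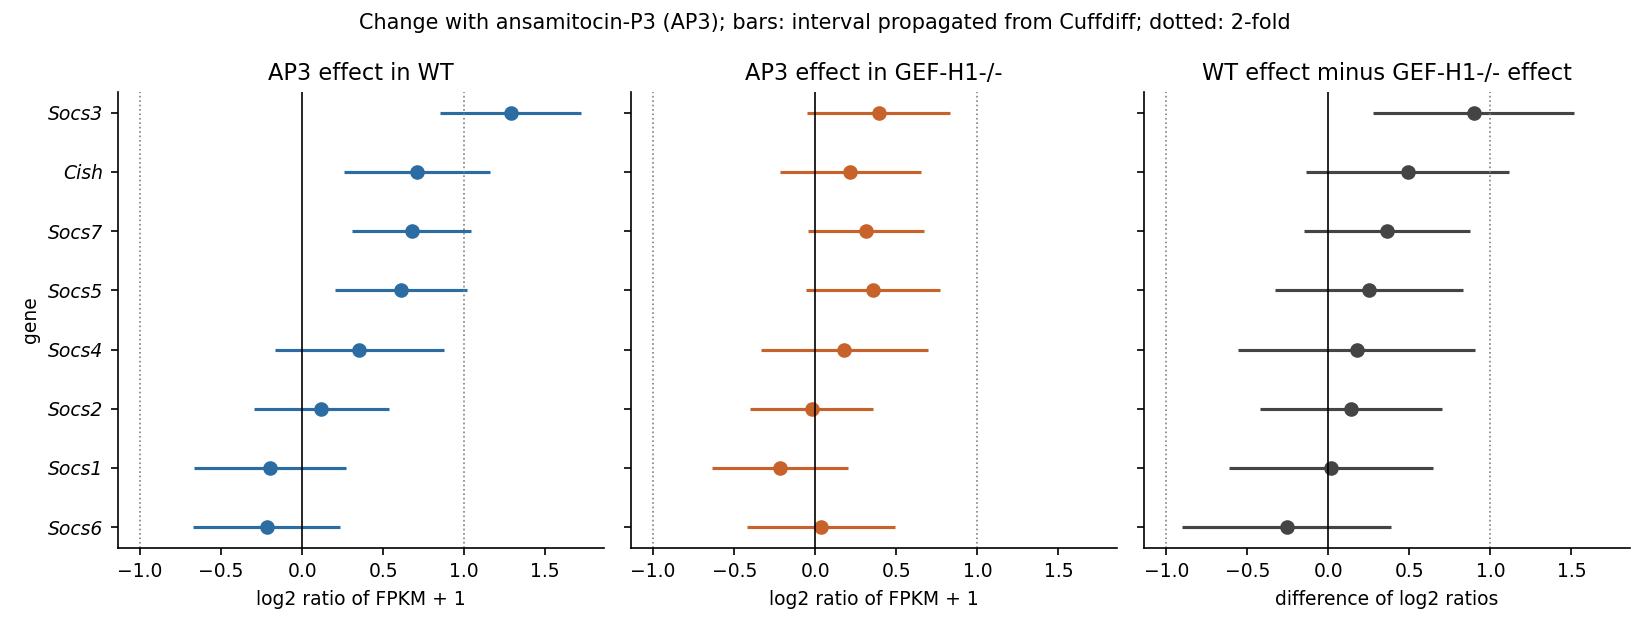
Log2 change with ansamitocin-P3 (AP3) of each member in WT DCs, in GEF-H1-/- DCs, and the difference between them (horizontal axes). Points are the changes, bars the intervals propagated from Cuffdiff and dotted lines 2-fold. The WT bars of *Socs3*, *Cish*, *Socs7* and *Socs5* lie above 0, all bars of GEF-H1-/- DCs include 0, and only the bar of *Socs3* lies above 0 for the difference.

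**Figure D3:**
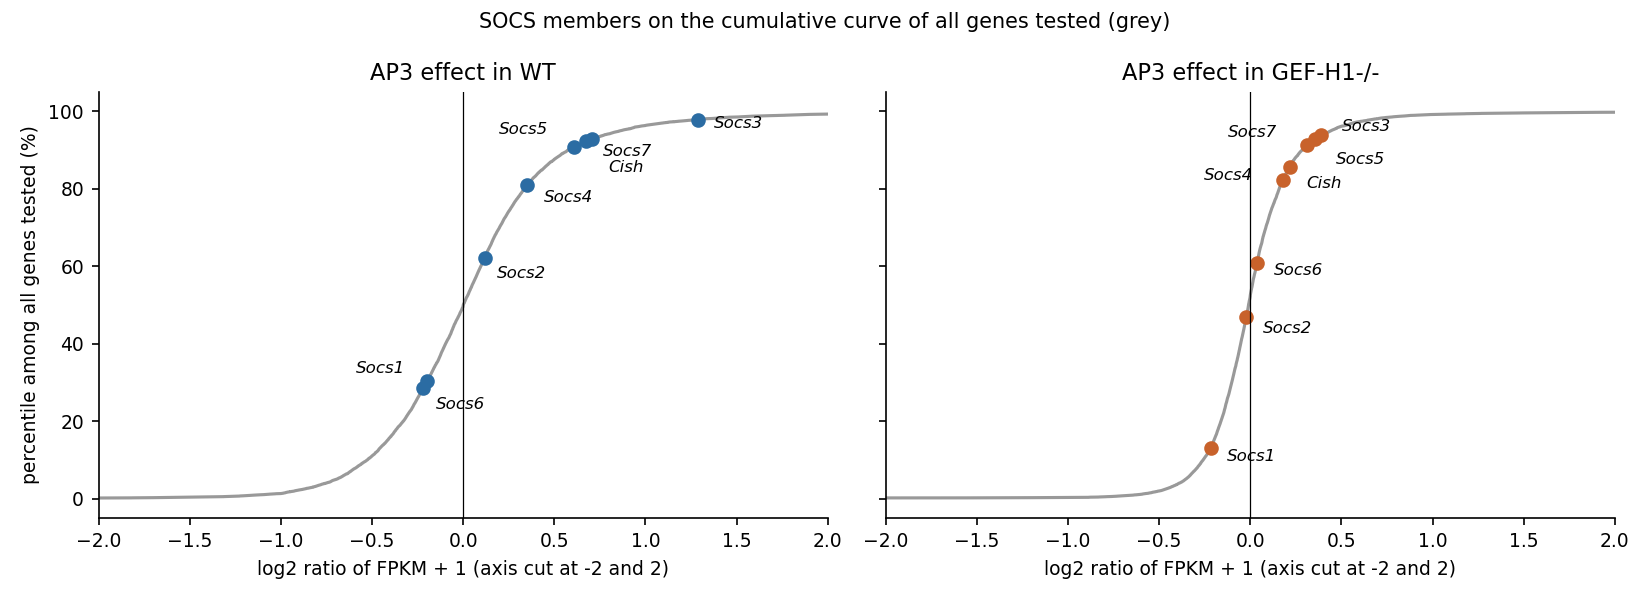
Cumulative curve (vertical axis, percentile) of the log2 change with ansamitocin-P3 (AP3) over 11397 genes in each genotype, with the 8 members as points. The curve is steeper in GEF-H1-/- DCs, where *Socs3* at 0.39 stands at the 93.8th percentile, against 1.29 and the 97.9th percentile in WT DCs.

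The signed log2 change with the drug was higher in WT than in GEF-H1-/- DCs for 7 of the 8 members, with a median difference of 0.21, as it was for 51.6% of all genes. These 7 include *Socs1*, which was lower with the drug in both genotypes. None of the 8 differed by more than 1 on the log2 scale, against 1.90% of all genes. For *Socs3* the difference was 0.90 (0.28 to 1.52), rank 200 of 11397, and it was the only member whose propagated interval left out 0. *Socs3* kept 0.303 of its WT log2 change in GEF-H1-/- DCs, *Cish* 0.307, *Socs7* 0.463, *Socs4* 0.504 and *Socs5* 0.586, while the ratio was 1.09 for the decrease of *Socs1*. These ratios have no error of their own, and every GEF-H1-/- interval includes 0. The difference for *Cish*, 0.49 (-0.14 to 1.12), and for *Socs7*, 0.36 (-0.15 to 0.87), was within the error. For *Socs1* it was 0.02 (-0.61 to 0.65) and for *Socs2* 0.14 (-0.42 to 0.70), intervals wide enough to hold changes in either direction. The *Socs1* difference also rests on the treated WT FPKM that lay above its own interval. *Socs6*, with changes of -0.22 (WT) and 0.04 (GEF-H1-/-), was the exception in sign, at -0.26 (-0.90 to 0.39).

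Before treatment, all 8 members were slightly higher in GEF-H1-/- than in WT DCs (median log2 difference 0.15), while 47.7% of all genes were higher. Each difference was small, from 0.02 for *Socs4* to 0.37 (-0.05 to 0.79) for *Socs3*. None passed 2-fold (0 of 8, against 1.88% of all genes), and no intervals lay apart (0 of 8, against 4.74%). *Socs6* at 0.24 (-0.22 to 0.70) and *Socs5* at 0.24 (-0.17 to 0.64) came next after *Socs3*. Control WT DCs are part of this comparison and of the drug's effect in WT, so a low control value enters both.

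After treatment 6 of the 8 members were lower in GEF-H1-/- than in WT DCs by sign, but *Socs5* at -0.01 and *Socs2* at -0.03 were nearly level. The median was -0.09 against -0.03 over all genes, of which 46.9% were higher. *Socs3* differed by -0.53 (-0.98 to -0.07) and *Socs7* by -0.31 (-0.68 to 0.07), and *Cish* by -0.30 (-0.76 to 0.16). *Socs6* was higher in treated GEF-H1-/- DCs, by 0.50 (0.04 to 0.95). Neither *Socs3* nor *Socs6* had Cuffdiff intervals apart here (0 of 8 members, against 13.7% of all genes), although their propagated intervals left out 0, and no member passed 2-fold (0 of 8, against 4.06%).

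Summed over the family, FPKM went from 572 to 705 with the drug in WT DCs and from 634 to 651 in GEF-H1-/- DCs. The net gain in WT DCs was 133 FPKM, to which *Cish* added 121 FPKM, *Socs3* 16.0 FPKM and *Socs1* -23.4 FPKM. In GEF-H1-/- DCs *Cish* added 35.5 FPKM and *Socs1* -27.3 FPKM. The ratio of *Cish* to *Socs1*, close to even in the control groups at 1.06 and 1.12, was 2.002 in treated WT and 1.52 in treated GEF-H1-/- DCs. *Socs1* exceeded *Socs3* by 17.8-fold in control and 5.98-fold in treated WT DCs, and by 14.5-fold and 9.34-fold in control and treated GEF-H1-/- DCs.

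The rest of the JAK-STAT pathway was read from 11 lists of ligands, receptors, kinases, STATs, SOCS partners, other inhibitors and STAT target genes, 97 genes once each past the filter and none of them a member. In WT DCs 5 of the 97 rose and 2 fell past 2-fold, which is 7.22% against 4.94% of all genes, with a median log2 change of 0.23, and intervals lay apart for 22 (22.7%, against 16.8%). In GEF-H1-/- DCs 2 rose and 0 fell past 2-fold (2.06%, against 1.08%), the median was 0.04, and intervals lay apart for 7 (7.22%, against 3.70%).

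Among 20 cytokines that signal through JAKs, 10 passed the filter and 2 rose past 2-fold, in both genotypes. *Osm*, which encodes oncostatin M, an IL-6 family cytokine, was at 16.9 FPKM in control and 217 FPKM in treated WT cells, and at 15.7 and 49.9 FPKM in the GEF-H1-/- pair, which is 3.61 and 1.60 on the log2 scale. The level of *Il6* was 11.4 and 77.7 FPKM in the WT pair and 12.9 and 41.0 FPKM in the GEF-H1-/- pair. Both act through gp130, the chain that SOCS3 binds. Of their other receptor genes listed, *Osmr* was under the filter, between 0 and 0.042 FPKM, and *Il6ra* between 16.4 and 18.7 FPKM. Signaling by these cytokines was not tested. *Lif*, the third gp130 cytokine named, was low, at 1.11 and 2.07 FPKM in WT DCs, where its intervals lay apart, and at 1.30 and 1.54 FPKM in GEF-H1-/- DCs.

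Of 27 receptor genes listed, 23 passed the filter, with median log2 changes of 0.36 (WT) and 0.03 (GEF-H1-/-), and 1 fell past 2-fold in WT DCs. This was *Lifr*, the LIF receptor, at 5.13 and 1.55 FPKM in WT and 4.69 and 3.51 FPKM in GEF-H1-/- DCs. *Il4ra*, the IL-4 receptor chain, rose with intervals apart from 40.6 to 68.4 FPKM in WT DCs, and *Il10ra* from 30.1 to 50.2 FPKM. In GEF-H1-/- DCs the intervals of both overlapped (*Il4ra* at 43.6 and 57.8 FPKM, *Il10ra* at 30.8 and 37.4 FPKM). Chosen after their values were seen, *Il6st*, which encodes gp130, had 8.74 and 14.7 FPKM in the WT pair and 10.1 and 12.7 FPKM in the GEF-H1-/- pair, and *Csf2rb*, the signaling chain of the GM-CSF receptor, 218 and 337 FPKM and 203 and 207 FPKM, in each case with intervals apart only in WT DCs.

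None of the 4 Janus kinases or 7 STATs passed 2-fold in either genotype. *Jak2*, which serves the GM-CSF receptor, was the most abundant of the kinases, at 201 and 259 FPKM in WT DCs, and *Tyk2* was at 44.2 and 31.6 FPKM and *Jak3* at 11.6 and 8.80 FPKM. *Stat4* rose with intervals apart in both genotypes, with 20.8 and 36.9 FPKM in the WT pair and 19.9 and 29.5 FPKM in the GEF-H1-/- pair. *Stat3*, the factor downstream of gp130, rose with intervals apart from 40.4 to 60.8 FPKM in WT DCs and was at 41.1 and 40.3 FPKM in GEF-H1-/- DCs. *Stat2* was at 23.6 and 16.5 FPKM in WT and 18.8 and 15.0 FPKM in GEF-H1-/- DCs.

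The 7 genes of the Cullin 5 ligase, with which the SOCS box assembles, had median log2 changes of 0.16 (WT) and 0.08 (GEF-H1-/-), and 0 of 7 had intervals apart in either genotype. *Tceb1* and *Tceb2*, the elongin genes, were at 78.3 and 113 FPKM and at 306 and 380 FPKM in control and treated WT DCs, and *Ube2f*, the conjugating enzyme, at 45.3 and 58.3 FPKM. In GEF-H1-/- DCs *Tceb1* was at 66.0 and 92.4 FPKM, *Tceb2* at 308 and 316 FPKM and *Ube2f* at 44.4 and 49.9 FPKM. The log2 change of *Tceb1* was 0.53 (WT) and 0.48 (GEF-H1-/-). Of 13 other inhibitors of the pathway, 1 fell past 2-fold in WT DCs, *Usp18*, the brake on the type I interferon receptor, at 21.3 and 7.05 FPKM, and its intervals also lay apart in GEF-H1-/- DCs (18.5 and 10.8 FPKM). *Ptpn6*, which encodes the phosphatase SHP-1, fell with intervals apart from 169 to 101 FPKM in WT DCs, and *Ptpn2*, another phosphatase, was at 49.5 and 73.9 FPKM with overlap. In GEF-H1-/- DCs *Ptpn6* was at 148 and 109 FPKM and *Ptpn2* at 45.3 and 54.9 FPKM, both with overlap. In the list of receptor kinases and adaptors bound by SOCS proteins, 6 of 8 genes passed the filter and none passed 2-fold. *Ptk2* rose with intervals apart from 1.90 to 3.32 FPKM and *Flt3* fell from 2.10 to 1.07 FPKM in WT DCs, and *Irs2* was at 5.90 and 7.42 FPKM. In GEF-H1-/- DCs *Ptk2* was at 1.74 and 2.71 FPKM, *Flt3* at 2.63 and 2.18 FPKM and *Irs2* at 4.83 and 5.62 FPKM, all with overlap. The log2 change of *Ptk2* was 0.57 (WT) and 0.44 (GEF-H1-/-).

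Textbook STAT targets were listed by factor, and the lists were not tested against each other. The 5 STAT5 targets other than *Cish* and *Socs2* had median log2 changes of 0.71 (WT) and 0.34 (GEF-H1-/-). Chosen after their values were seen, *Ccnd2* was flat (0.04 and -0.03), and *Il2ra* changed by 0.46 (WT) and 0.52 (GEF-H1-/-). The *Il2ra* intervals lay apart only in GEF-H1-/- DCs. *Pim1*, a kinase gene, rose with intervals apart from 129 to 248 FPKM in WT DCs and was at 140 and 162 FPKM in GEF-H1-/- DCs, and *Bcl2l1*, a survival gene, rose from 28.6 to 47.4 FPKM in WT DCs. Of 7 STAT3 targets, *Junb* (96.0 to 253 FPKM) and *Hif1a* (50.9 to 109 FPKM) rose past 2-fold in WT DCs, with a median of 0.53. In GEF-H1-/- DCs 0 did (*Junb* at 82.9 and 109 FPKM, *Hif1a* at 50.4 and 62.5 FPKM), with a median of -0.05. By sign, 6 were higher and 1 lower with the drug in WT DCs, and 3 higher and 4 lower in GEF-H1-/- DCs. Chosen after their values were seen, *Myc* changed by -0.31 and *Icam1* by 0.01 in WT DCs. Of 9 STAT6 targets, 7 passed the filter and none passed 2-fold. *Arg1* was at 310 and 474 FPKM, *Mgl2* at 831 and 1212 FPKM and *Ccl22* at 2685 and 3445 FPKM in WT DCs. In each genotype 6 were higher and 1 lower with the drug, with medians of 0.33 (WT) and 0.16 (GEF-H1-/-). *Chil3*, not past the filter, was listed at 0 FPKM in every group with a lower bound that is no usable value. Its level is therefore unknown. Interferon targets had medians of 0.04 and -0.08 over 10 of 11 genes, and 1 of them, *Cxcl10*, rose past 2-fold in WT DCs, from 1.51 to 4.19 FPKM. *Mx1* was at 14.8 and 10.8 FPKM and *Rsad2* at 1.25 and 1.79 FPKM.

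**Figure D4:**
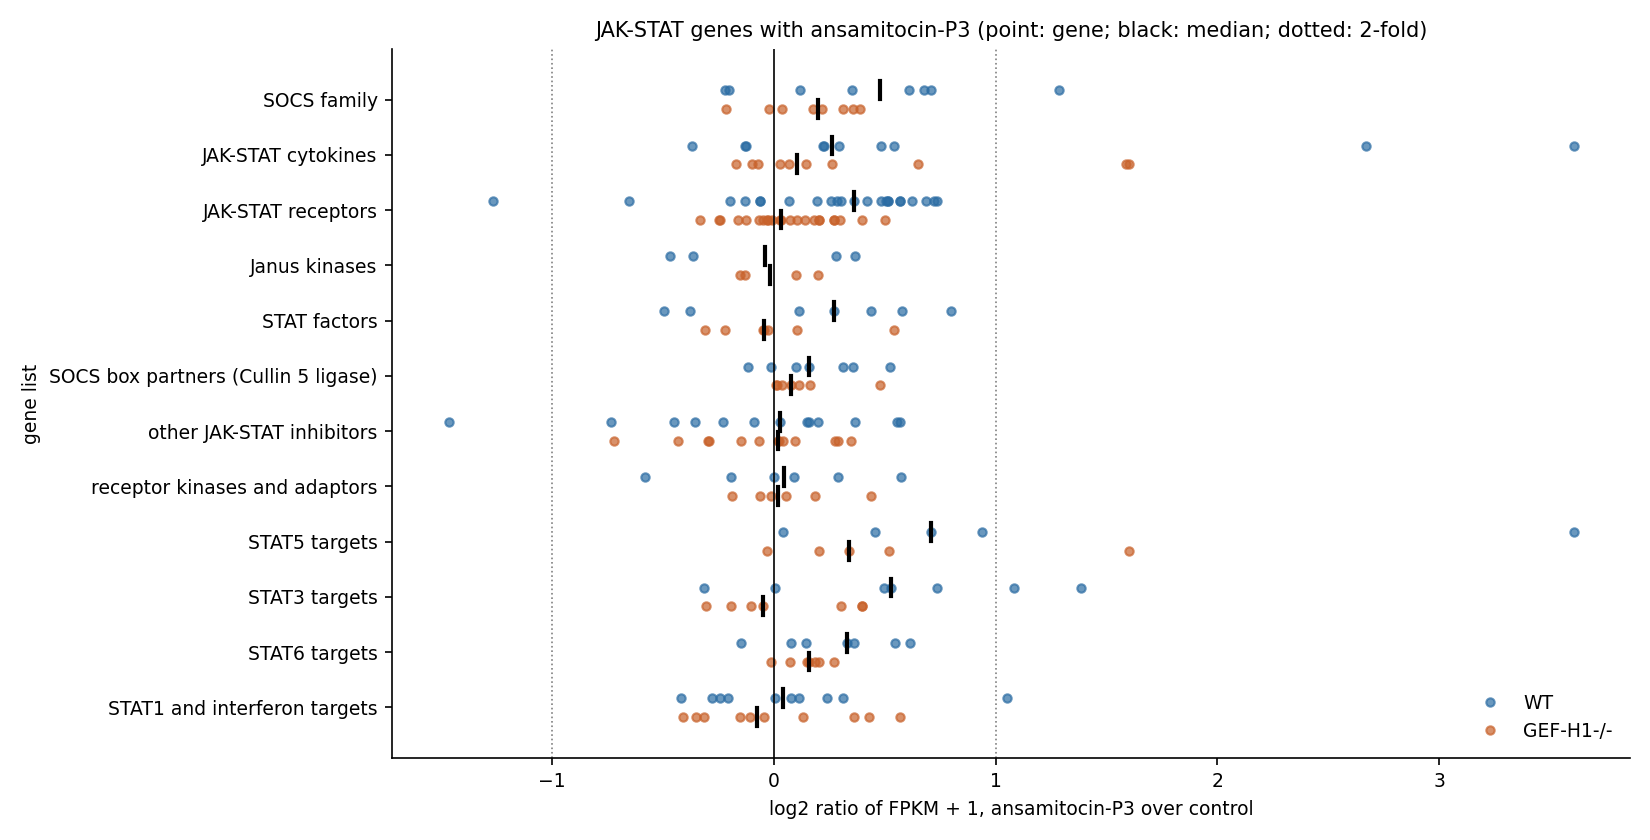
Log2 change with ansamitocin-P3 (horizontal axis) of the SOCS family and of each JAK-STAT list (rows) in WT and GEF-H1-/- DCs. Points are genes past the filter, black marks medians and dotted lines 2-fold. The SOCS medians are 0.48 (WT) and 0.20 (GEF-H1-/-), and *Osm*, at 3.61 in WT DCs, is the rightmost point and stands in the cytokine and STAT5 rows.

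*Socs3*, *Cish* and *Socs7* had the widest ranges over the 4 groups (1.29, 0.71 and 0.68 on the log2 scale). The genes nearest to each were found by Euclidean distance between centred log2(FPKM + 1) values over these 4 values, among 8893 other genes that reached 5 FPKM somewhere. For *Socs3* they were *Slc35e4* (distance 0.05), *Sepn1* (0.10), *Apbb3* (0.13), *Tma16* (0.16) and *Fam129b* (0.17). *Sepn1*, the selenoprotein N gene, ran close to it also in level, at 9.46, 24.0, 13.2 and 17.9 FPKM in control WT, treated WT, control GEF-H1-/- and treated GEF-H1-/- DCs. For *Cish* they were *Nfkbid* (0.01), *Plekhg3* (0.03), *Atp6v0c* (0.04), *Trp53i13* (0.04) and *Clk3* (0.06). *Atp6v0c*, which encodes a subunit of the vacuolar proton pump, was at 575, 931, 645 and 734 FPKM in the same order. For *Socs7* all 5 (*Pik3cb*, *Wsb2*, *Ppm1a*, *Ttc7b* and *Ppp2ca*) lay at a distance of 0.03, and *Wsb2*, which encodes another SOCS box protein, was at 37.3, 60.0, 39.7 and 49.4 FPKM. Each likeness rests on 4 pooled values.

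**Figure D5:**
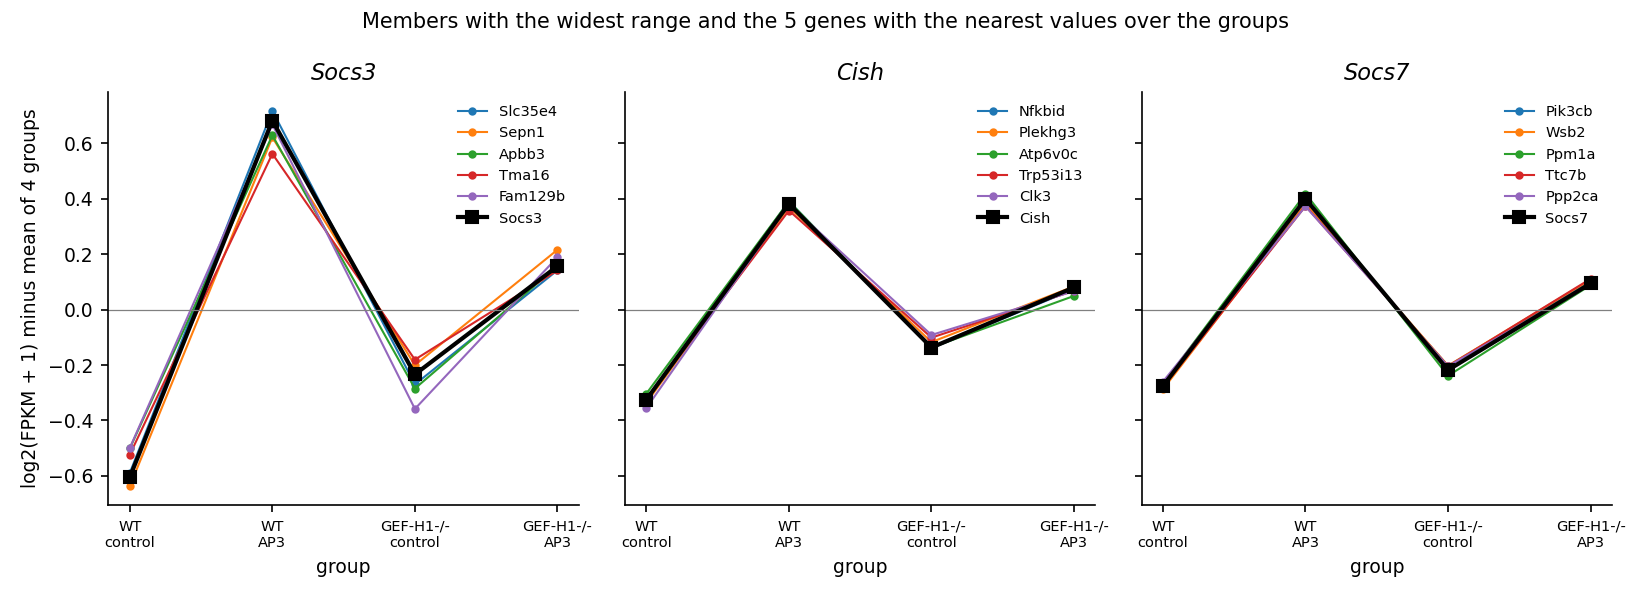
Centred log2(FPKM + 1) (vertical axis, minus the mean of the 4 groups) of *Socs3*, *Cish* and *Socs7* (black) and of the 5 nearest genes each (colours) in the 4 groups (AP3: ansamitocin-P3). Lines join the groups of 1 gene and are no time course. Every curve peaks in treated WT DCs and is lowest in control WT DCs.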

How the data were processed

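RNA-seq covered 8 libraries, 2 for each of 4 groups. The authors prepared TruSeq Stranded mRNA libraries, sequenced paired ends and computed FPKM in Cuffdiff (version 1.05 per the labels, mm10). The deposited FPKM are pooled per group, beside the bounds of the Cuffdiff interval and a status. The aligner and annotation of this table are not given in the sources used here. Columns naming no genotype were taken as WT by elimination. Unused columns of sample values numbered 0. Table starts count from 0 and were raised by 1.

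Genes with a status other than OK (107) or under 1 FPKM in all groups were left out, which left 11397. The added pseudocount was 1 FPKM. The widths of the Cuffdiff intervals were brought to the log2 scale by the delta method and combined in quadrature. The planned branch for separate libraries (limma) was not used, as values are pooled. The code was tested on simulated data. Python 3.11.15, pandas 2.3.3 and numpy 2.4.6 were used. The depth of each library is unknown.

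The members and gene lists were chosen with earlier results of these data known. All members, *Arhgef2* and the 5 nearest genes of the 3 members with the widest range were named, and genes of a list when among the 3 with the largest WT change or past 2-fold with the drug in either genotype. Listed symbols missing from the table were matched by RefSeq synonyms (3 genes of the JAK-STAT lists, and the macrophage marker *Adgre1*, found as *Emr1*). Tried as alternatives were a pseudocount of 0.1 or 5 FPKM, leaving out the filter or raising it to 5 FPKM, rescaled groups, a 1.5-fold threshold, and 2-fold with intervals apart.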

Additional observations from a re-analysis of the deposited data

Results flagged for a closer look

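The log2 effect of ansamitocin-P3 on *Socs3* was larger in WT than in GEF-H1-/- DCs by 0.90 (propagated interval 0.28 to 1.52), with 1.29 in WT and 0.39 in GEF-H1-/- DCs. It stands here because this interval of the difference left out 0. The difference was not tested against the spread between libraries, which the pooled values do not hold.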

How the results depend on the processing

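The number of members past the threshold stayed within 1.5 times of its value, or at 0, in 33 of 35 recomputed counts. Many of these counts could not change. Every member exceeded 5 FPKM in some group, so neither change of the filter could alter a count. Asking also for intervals apart could only lower a count. With a 1.5-fold threshold in place of 2-fold, 4 members in place of 1 were past it with the drug in WT DCs, and 1 in place of 0 for the difference of drug effects, by construction of the lower threshold. The log2 changes of members moved by at most 0.25, under a pseudocount of 5 FPKM, and by at most 0.09 with 0.1 FPKM and 0.01 with rescaled groups. None of these 120 values moved beyond its propagated interval or changed sign. For a ratio between groups, another pseudocount cannot change the sign, so the kept sign holds by construction there. No paired analysis was possible because each group is 1 pooled value, and for the same reason no library could be left out. Depth is unknown. *Socs5* and *Socs7*, under 10 FPKM, have their changes with the drug in each genotype understated most by the added 1 FPKM. For the difference of drug effects this is *Socs3*, at 0.95 with a pseudocount of 0.1 FPKM against 0.90.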

Other observations

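Between the control groups, 3 of the 97 JAK-STAT genes were higher in GEF-H1-/- than in WT DCs past 2-fold and 0 were lower (3.09%, against 1.88% of all genes tested), and they were chosen after their values were seen. *Csf3r*, the G-CSF receptor, was at 11.3 FPKM in WT and 30.7 FPKM in GEF-H1-/- control DCs, *Il4* at 1.28 and 4.49 FPKM, and *Retnla*, a target of IL-4 and STAT6, at 510 and 2397 FPKM. Their intervals lay apart. *Retnla* was at 537 and 2378 FPKM in treated WT and GEF-H1-/- DCs. The markers *Mcpt8* (63.5 and 97.0 FPKM) of basophils and *Mpo* (26.4 and 63.1 FPKM) of early granulocytes were also higher in control GEF-H1-/- DCs, while *S100a8* of neutrophils was lower (19401 and 10856 FPKM), and their part in these values was not tested.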
